A study of Mus musculus with 7 samples.

Results

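Podocytes are the epithelial cells that wrap the glomerular capillaries with interdigitating foot processes, and their shape depends on a cortical actin cytoskeleton and on a negatively charged sialoglycoprotein coat at the apical membrane. The coat is built on podocalyxin, which is tied to actin through ezrin and its partners, while synaptopodin, alpha-actinin-4, a class I myosin, a formin and a Rac GTPase-activating protein organise the filaments behind it. Mutations in several of these actin genes are known causes of inherited proteinuric disease. The set described here holds 10 such genes out of 48709 Ensembl genes in the deposited counts: Podxl, Ezr, Clic5, Synpo, Actn4, Myo1e, Inf2, Arhgap24, Nes and Thsd7a. They were chosen by gene symbol, with 1 row for each, and all 10 passed the low-count filter that left 15394 genes. The list sets no threshold on a measured value. It was put together with the fold changes and p-values of the same genotype comparison known, so differences between genotypes are given as a description and support nothing further.

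Kidney RNA of male mice was sequenced. The 3 wild-type (WT) libraries carry the replicate numbers 1, 2 and 4, and the 4 libraries of mice lacking both Hs3st3a1 and Hs3st3b1 (double knockout, DKO) the numbers 1 to 4. Both genes encode enzymes that add 3-O-sulfate groups to heparan sulfate, and the study's title concerns the size of kidneys and glomeruli and the architecture of glomeruli after their loss. Every library title holds a different animal number, so the replicate was taken to be the animal. Strain, age and the deleted part of each gene are not stated in the labels. Ensembl genes received between 18330833 and 24259231 counts per library. Hs3st3a1 received 29, 13 and 12 reads in the WT libraries and 1, 0, 0 and 3 reads in the DKO libraries, which separates the libraries as their labels do, whereas Hs3st3b1 received 56, 90 and 112 reads in WT and 33, 106, 65 and 108 in DKO, over the whole gene, and does not separate them. The libraries are of whole kidney, in which fewer cells of a type and less RNA per cell cannot be told apart.

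The 10 genes spanned a wide range of levels in WT kidney. Per kilobase of merged exon, Actn4 was at 149.9 ± 29.2 CPM (read counts scaled to library size with TMM factors; SD, n = 3), followed by Ezr at 35.5 ± 6.20 and Arhgap24 at 29.4 ± 1.20, which did not differ from each other beyond the SD of Ezr. The 3 genes lay at the 97.2, 89.0 and 87.4 percentiles of all tested genes on the same scale. Podxl came next at 6.76 ± 0.637 CPM per kilobase. Myo1e (2.76 ± 0.730), Clic5 (2.69 ± 0.200) and Nes (1.70 ± 0.589) followed, and Myo1e and Clic5 did not differ beyond their spread. Synpo was at 0.909 ± 0.138, Inf2 at 0.564 ± 0.184 and Thsd7a, the lowest, at 0.145 ± 0.0594 CPM per kilobase. This order and these likenesses hold only for merged exons, which join all annotated transcripts of a gene. They were 8792 nt for Arhgap24 and 3290 nt for Ezr, where the longest transcripts had 4277 and 3164 nt. For Clic5 and Myo1e they were 8782 and 5704 nt, against 5862 and 4699 nt. The order by length of the transcripts present was not tested. For comparison, Nphs1, which encodes the slit diaphragm protein nephrin and defines podocytes, was at 0.459 ± 0.107 CPM per kilobase. All members but Thsd7a had a higher mean than this podocyte-specific transcript in whole kidney, though Inf2 did not differ from it beyond the SD. Ezrin is a known component of the proximal tubule brush border and alpha-actinin-4 is made by many cell types, and the cell source of these reads was not tested.

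Actn4, Ezr and Myo1e shared the same extreme libraries, with WT replicate 4 lowest among WT and DKO replicate 3 highest among DKO, as did Podxl and Arhgap24 (5 of the 10 genes, and 11.6% of all tested genes). Their other libraries were not in the same order. Promoter entries were found in the RefSeq table (GRCm38.p6) for 7 of the 10 genes, and not for Podxl, Synpo and Arhgap24. The 250 bases upstream of the start of the 3 genes of that pattern with an entry are shown as regulatory sequences of members that share these 2 extreme libraries. They were chosen after the values were seen. Actn4 lies at chr7:28962333-28962582 on the minus strand, Ezr at chr17:6782781-6783030 on the minus strand and Myo1e at chr9:70207100-70207349 on the plus strand, and each is written 5′ to 3′ on the strand of its gene. Capitals mark the CArG box, the site of serum response factor, a regulator of many actin genes, and GCGTGGG, letters found in sites of the WT1 and EGR zinc-finger factors. Both strands were searched.
Actn4: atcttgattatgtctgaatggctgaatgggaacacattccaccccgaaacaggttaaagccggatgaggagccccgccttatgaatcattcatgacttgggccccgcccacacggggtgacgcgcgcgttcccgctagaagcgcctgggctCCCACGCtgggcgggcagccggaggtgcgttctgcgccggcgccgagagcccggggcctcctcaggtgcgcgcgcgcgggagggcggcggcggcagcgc
Ezr: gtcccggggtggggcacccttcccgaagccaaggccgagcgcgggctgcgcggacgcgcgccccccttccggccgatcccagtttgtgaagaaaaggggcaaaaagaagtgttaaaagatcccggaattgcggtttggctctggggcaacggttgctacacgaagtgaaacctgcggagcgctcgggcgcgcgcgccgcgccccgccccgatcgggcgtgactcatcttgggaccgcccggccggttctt
Myo1e: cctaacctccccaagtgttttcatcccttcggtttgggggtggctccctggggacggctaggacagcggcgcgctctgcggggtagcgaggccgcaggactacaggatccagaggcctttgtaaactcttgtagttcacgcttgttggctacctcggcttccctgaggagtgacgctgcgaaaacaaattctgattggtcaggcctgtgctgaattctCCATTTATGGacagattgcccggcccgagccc

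The Myo1e window held a CArG box 32 to 23 bases before the start, and 1.47% of the 32851 promoter windows in the table held one. The Actn4 window held GCGTGGG on the opposite strand, 99 to 93 bases before the start, and the Thsd7a window held it on the gene's own strand at 150 to 144 bases. That motif was in 4.30% of all windows. The Ezr window held neither. The GC box GGGCGG was in 6 of the 7 members' upstream regions, Myo1e being the one without it, and in 32.7% of all windows. The matches describe letters and are not binding sites.

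The surface coat gene Podxl was the only one of the 10 whose DKO libraries all lay above the WT libraries. Podxl encodes podocalyxin, the sialomucin whose charge helps to keep the filtration slits open (ENSMUSG00000025608, chromosome 6, positions 31519488 to 31563981 on GRCm38, minus strand, 9 merged exons). Its level was 40.6, 36.9 and 33.6 CPM in WT replicates 1, 2 and 4, and 49.0, 52.8, 57.2 and 54.5 CPM in DKO replicates 1 to 4. The lowest DKO library was thus above the highest WT library, and DKO replicate 1 was the closest to the WT values. The WT mean was 37.1 ± 3.50 CPM (SD, n = 3) and the DKO mean 53.4 ± 3.42 CPM (SD, n = 4). The fitted ratio was 1.44, or 0.53 as a log2 fold change with an SE of 0.14. The edgeR quasi-likelihood adjusted p over all genes was 0.163, and DESeq2, given the same genes, returned 0.0356, adjusted over the 13001 genes for which it gave an adjusted p. Among all tested genes, 8.34% had every DKO library above every WT library and 9.04% had every DKO library below, where the 10 genes gave 1 and 0. DESeq2 called 1.77% of its 13001 genes as higher in DKO. Nothing is read from these counts, because earlier results of this comparison were known when the list was made.

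The members that join podocalyxin to actin were less separated. Ezr encodes ezrin, which links the tail of podocalyxin to filaments (chromosome 17, positions 6738041 to 6782784, minus strand). Its level was 118, 136 and 95.6 CPM in WT and 138, 128, 151 and 138 CPM in DKO. WT replicate 2 lay inside the DKO range, and WT replicate 4 was the lowest of the 7. The log2 fold change was 0.25 (SE 0.16, edgeR adjusted p 0.382), and 0.12 without WT replicate 4. Clic5 encodes a chloride intracellular channel protein found in the ezrin complex of foot processes (chromosome 17, positions 44188584 to 44280172, plus strand). It was at 21.6, 24.3 and 24.8 CPM in WT and 22.8, 28.0, 29.2 and 30.8 CPM in DKO. DKO replicates 2 to 4 were above all WT libraries and DKO replicate 1 was among them (log2 fold change 0.23, SE 0.16, edgeR adjusted p 0.401). Among the other genes of the apical complex and its sialoglycoproteins, 5 of 11 tested were higher and 6 lower in DKO, with a median log2 fold change of -0.028 and 0 called by edgeR. At an unadjusted edgeR p under 0.05, 9.86% of all tested genes were higher and 11.3% lower in DKO. The 2 of this list at that p were Clic1, a relative of Clic5 (log2 fold change -0.76), and Gne, the first enzyme of sialic acid synthesis (0.55). The scaffolds that bind both podocalyxin and ezrin showed smaller values, -0.028 for Slc9a3r1 and 0.056 for Slc9a3r2. Radixin (Rdx), a relative of ezrin, was at 101, 118 and 86.9 CPM in WT and 125, 125, 148 and 120 CPM in DKO. Its groups did not overlap (log2 fold change 0.35), where 8.34% of tested genes had every DKO library above WT. Of this list 1 gene, Clic1, had every DKO library below WT, where 9.04% of tested genes did. Msn was at 0.41 with overlap.

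**Figure D1:**
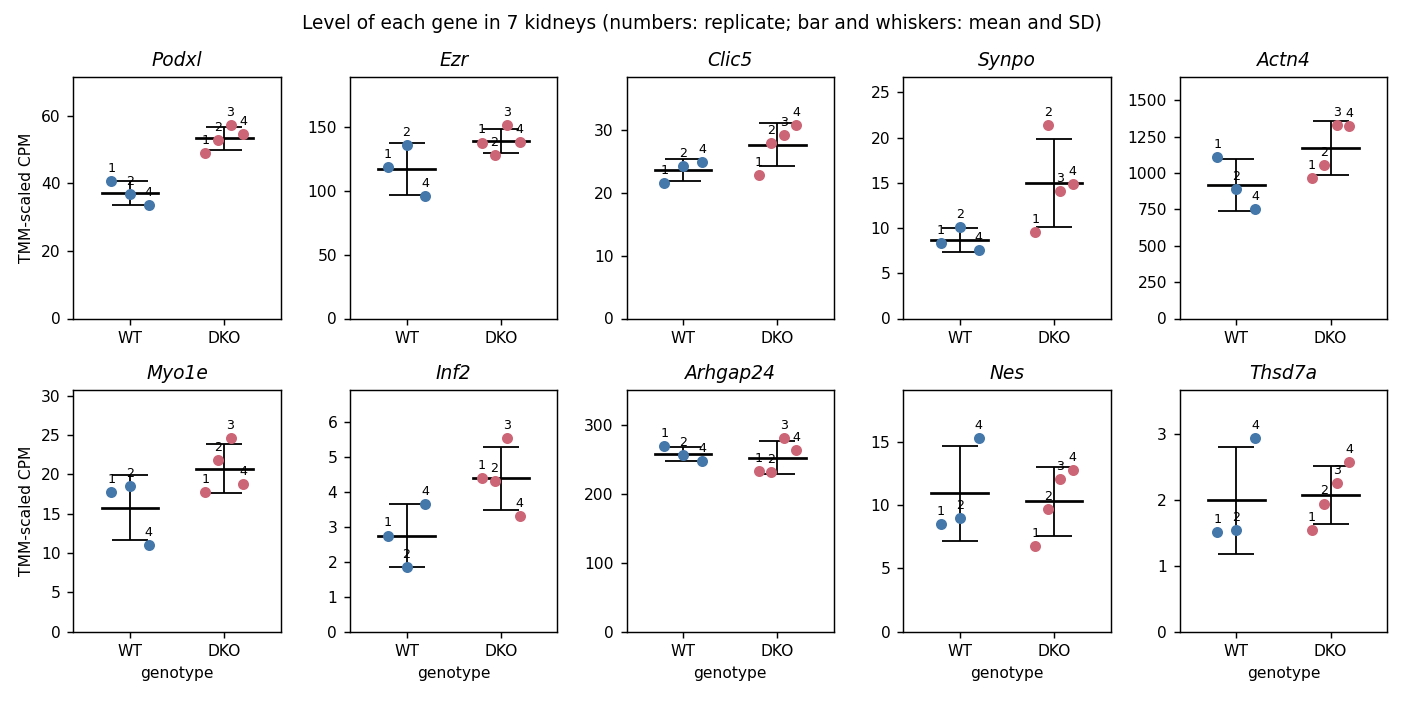
TMM-scaled CPM of the 10 genes on a linear axis from 0, with 1 point per kidney (3 WT in blue, 4 DKO in red, numbered by replicate), the mean as a bar and the SD as whiskers. The groups are apart only for Podxl (33.6 to 40.6 against 49.0 to 57.2 CPM), and they overlap in the other panels.

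Synpo and Inf2 had the largest differences of the set, each with an overlap of 1 library. Synpo encodes synaptopodin, the actin-bundling protein and classic marker of differentiated podocytes (chromosome 18, positions 60593973 to 60660142, minus strand). It was at 8.36, 10.1 and 7.52 CPM in WT and 9.55, 21.4, 14.1 and 14.9 CPM in DKO. DKO replicate 1 lay between WT values, whereas DKO replicate 2 was the highest of all. The WT mean was 8.66 ± 1.32 CPM (SD, n = 3) and the DKO mean 15.0 ± 4.87 CPM (SD, n = 4), with a fitted ratio of 1.73 (log2 fold change 0.79, SE 0.25, edgeR adjusted p 0.164). Inf2 encodes inverted formin 2, which both builds and severs filaments (chromosome 12, positions 112588784 to 112615557, plus strand). It was at 2.75, 1.85 and 3.64 CPM in WT and 4.40, 4.31, 5.54 and 3.31 CPM in DKO. DKO replicate 4 lay below WT replicate 4, and the other DKO libraries lay above all of WT (log2 fold change 0.67, SE 0.29, edgeR adjusted p 0.219). Without WT replicate 2 the log2 fold change was 0.44. Inf2 rested on 35 to 108 reads per library, so counting alone gives an SD of 16.9% at the lowest count.

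Actn4 and Myo1e were higher on average in DKO with overlapping groups. Actn4 encodes the filament crosslinker alpha-actinin-4 (chromosome 7, positions 28893248 to 28962340, minus strand). It was at 1109, 892 and 755 CPM in WT and 968, 1058, 1329 and 1326 CPM in DKO. WT replicate 1 exceeded DKO replicates 1 and 2, and DKO replicates 3 and 4 were the highest (log2 fold change 0.35, SE 0.20, edgeR adjusted p 0.328). Actn4 made up 65.9% of the summed CPM of the 10 genes in WT, so a sum over the set mostly reads this gene. Its exons share 316 nt, or 5.16%, with the opposite-strand gene Capn12, which received at most 9 reads in any library. Myo1e encodes a membrane-bound class I myosin of foot processes (chromosome 9, positions 70207350 to 70399766, plus strand). It was at 17.8, 18.5 and 11.0 CPM in WT and 17.7, 21.8, 24.6 and 18.8 CPM in DKO. WT replicate 4 stood below the other 6 libraries, and DKO replicate 1 lay just under WT replicates 1 and 2 (log2 fold change 0.40, SE 0.21, edgeR adjusted p 0.293). Without WT replicate 4 the log2 fold change was 0.22 for Actn4 and 0.19 for Myo1e.

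Arhgap24, Nes and Thsd7a showed differences well inside their standard errors. Arhgap24 encodes a GTPase-activating protein that turns off Rac at the cell edge (chromosome 5, positions 102481391 to 102897937, plus strand). Its level was 269, 256 and 249 CPM in WT and 234, 232, 281 and 264 CPM in DKO. DKO libraries lay both below and above the whole WT range, with a log2 fold change of -0.031 (SE 0.15, edgeR adjusted p 0.921). Nes encodes nestin, an intermediate filament protein kept by adult podocytes (chromosome 3, positions 87971078 to 87980451, plus strand). It was at 8.51, 9.00 and 15.3 CPM in WT and 6.73, 9.67, 12.0 and 12.8 CPM in DKO. The highest value came from WT and the lowest from DKO, and the difference as a log2 fold change was -0.087 (SE 0.27, edgeR adjusted p 0.874). Thsd7a encodes a thrombospondin-repeat membrane protein at the basal side of podocytes that is an autoantigen in membranous nephropathy (chromosome 6, positions 12311610 to 12749410, minus strand). Its level was 1.51, 1.53 and 2.93 CPM in WT and 1.54, 1.94, 2.26 and 2.57 CPM in DKO. WT replicate 4 was again the highest, and the log2 fold change was 0.058 (SE 0.33, edgeR adjusted p 0.935). Thsd7a had only 29 to 63 reads per library, which alone gives an SD of 18.6% at the lowest count.

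Over the whole set, 8 of 10 genes had a log2 fold change above 0 and 2 below, with a median of 0.30. Among all tested genes 53.2% were above 0, with a median of 0.036. Podxl, Synpo and Inf2 had an unadjusted edgeR p under 0.05, all higher in DKO, where 9.86% of tested genes were higher and 11.3% lower at that p. None of the 10 passed an adjusted p of 0.05 in edgeR, where 0% of all tested genes passed. In DESeq2, 1 of the 10 passed, Podxl, where 4.74% of those 13001 genes passed in either direction. Nothing is read from any of these shares, for the reason given above.

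**Figure D2:**
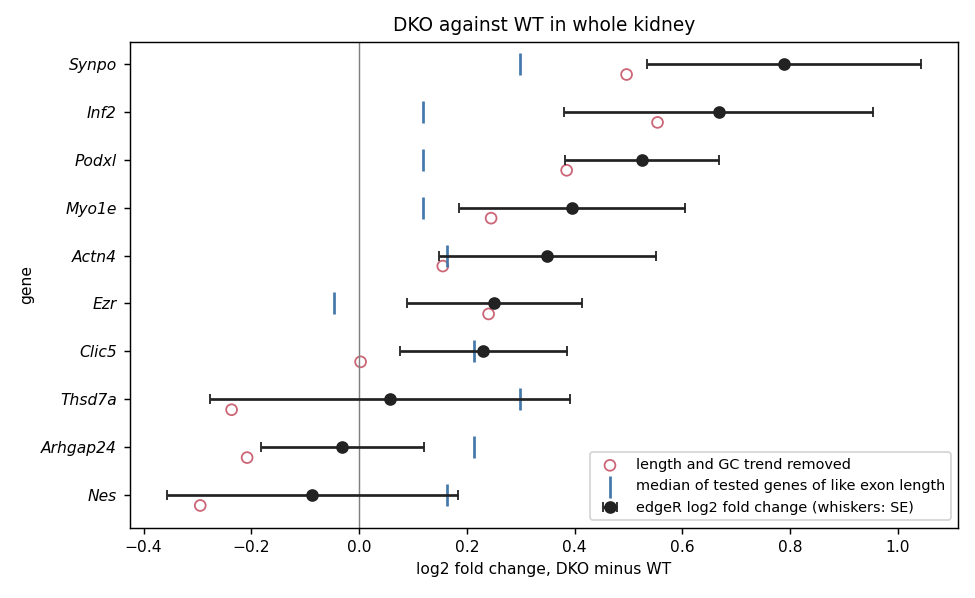
Log2 fold change of DKO minus WT for each gene, with the edgeR estimate and its SE (black), the median of all tested genes in the same decile of exon length (blue tick) and the value after a length and GC trend was removed (open red circle). Synpo, Inf2 and Podxl stand highest at 0.79, 0.67 and 0.53, and 7 of the 10 open circles are above 0.

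Exon length moved with these differences. In the whole table the median log2 fold change went from -0.40 in the shortest decile of genes (57 to 1293 nt of merged exons) to 0.30 in the longest (9419 to 123179 nt), where 82.2% of genes were above 0. Of the 10 genes, 9 were longer than the median tested gene, with a median of 6272 nt against 4008 nt. Relative to genes of like exon length the median over the set was 0.23 and 7 of 10 genes were above the median of their decile. The values on that scale were 0.55 for Inf2, 0.49 for Synpo, 0.41 for Podxl, 0.30 for Ezr, 0.28 for Myo1e, 0.19 for Actn4 and 0.016 for Clic5. Thsd7a, Arhgap24 and Nes were at -0.24, -0.25 and -0.25. With a smooth trend on length and GC content removed, the median was 0.20 and the same sign was seen in each of the 10 genes as on the scale of like length. Synpo was then at 0.50, Myo1e at 0.25, Actn4 at 0.16 and Clic5 at 0.0028. The gap between the longest and the shortest decile, as a median log2 difference from the WT mean, was 0.19, 0.11 and -0.29 in WT replicates 1, 2 and 4 and 0.29, 0.94, 0.83 and 0.63 in DKO replicates 1 to 4. It thus differed between libraries within each genotype, and DKO replicate 1 was the DKO library closest to WT. It was also larger in every DKO library than in any WT library, so length pattern and genotype cannot be told apart here. The part of this length pattern in the differences of single genes was not tested.

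**Figure D3:**
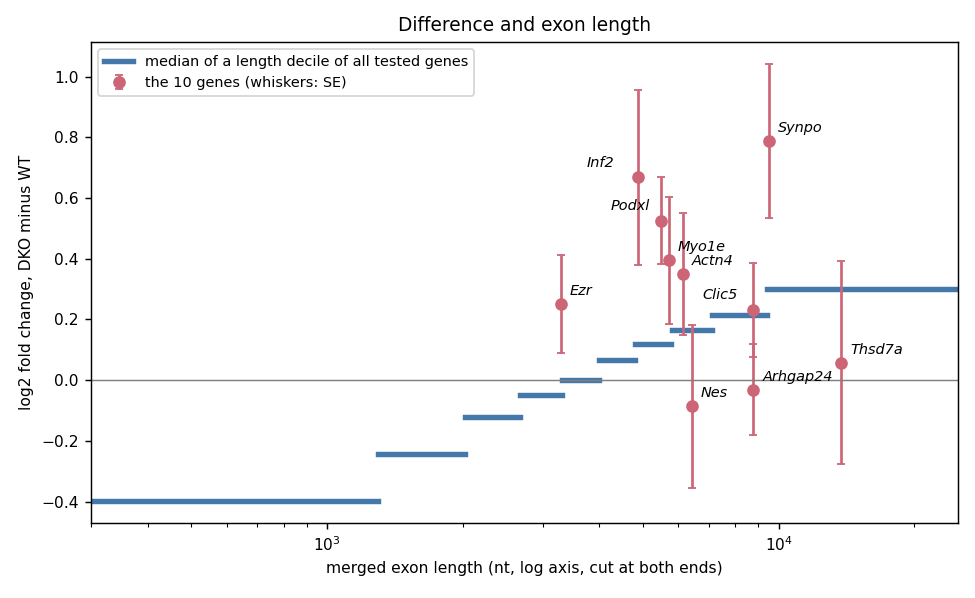
Log2 fold change of DKO minus WT against merged exon length on a log axis, with the 10 genes in red (whiskers SE) and the median of each length decile of all tested genes as a blue line. The blue lines climb from -0.40 to 0.30 with length, and Inf2, Synpo and Podxl lie above them while Nes, Arhgap24 and Thsd7a lie below.

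Across single libraries, the set did not move as a block. DKO replicates 3 and 4 were above the WT mean in all 10 genes, with median log2 differences of 0.47 and 0.35. DKO replicate 2 was above it in 8 (median 0.24) and DKO replicate 1 in 6 (median 0.12). In DKO replicate 1, 7 of the 10 genes had their lowest DKO value. WT replicate 4 divided the set, being the lowest WT library for 6 genes, Podxl, Synpo, Actn4, Ezr, Myo1e and Arhgap24, and the highest for the other 4, Clic5, Nes, Inf2 and Thsd7a. The spread between animals also differed among members. The pooled within-group SD of log2 CPM was 0.11 for Podxl and Arhgap24, 0.16 for Clic5, 0.18 for Ezr and 0.25 for Actn4, all under the median of 0.30 over tested genes. It was 0.31 for Myo1e, 0.43 for Nes, 0.41 for Thsd7a, 0.39 for Synpo and 0.38 for Inf2.

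**Figure D4:**
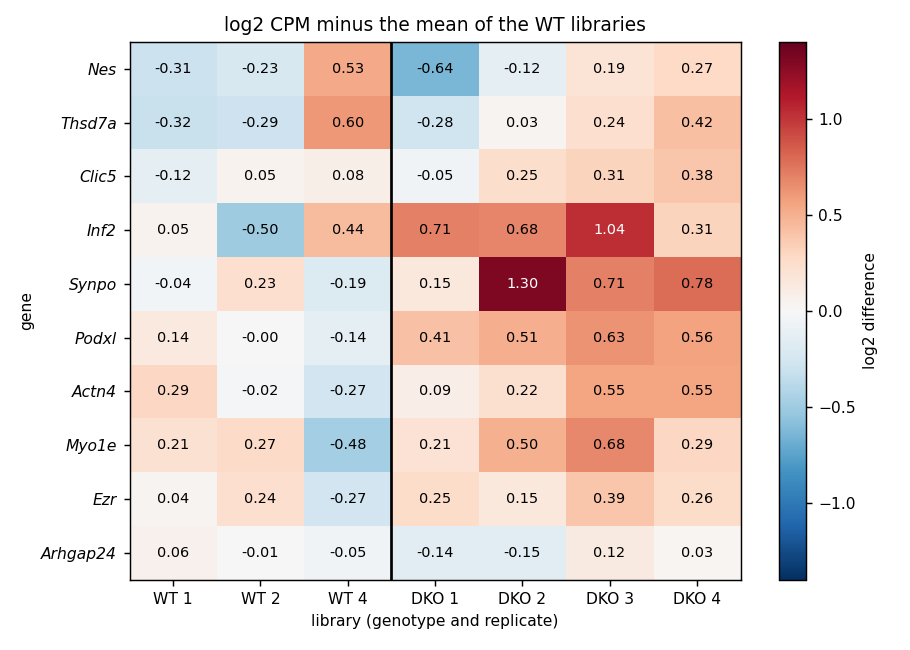
Log2 CPM of each gene in each library minus the mean of the 3 WT libraries, with red above and blue below that mean and the value printed in each cell. DKO replicates 3 and 4 are red throughout, DKO replicate 1 is mixed, and Nes and Thsd7a share their colours in each library but DKO replicate 2.

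Likeness of pattern was measured as the root mean square difference in log2 CPM over the 7 libraries, each gene being centred on its own mean. For Podxl the closest of 15393 other tested genes were Ddx5, an RNA helicase (0.034), Slc34a1, the proximal tubule phosphate transporter (0.051), and Clip1, a microtubule-binding protein (0.059). For Synpo they were Rps6kb1, a ribosomal S6 kinase (0.077), Dennd5a (0.081) and Wac (0.085). None of these 6 is a podocyte marker. Nphs1 was ranked 4411 by closeness to Podxl, at a difference of 0.30, where the median over all genes was 0.40. Within the set, and chosen after the values were seen, Nes and Thsd7a were nearly superposed, Thsd7a being ranked 3 by closeness to Nes at a difference of 0.13. Ezr was close to radixin (Rdx), its relative in the same family of membrane-actin linkers, at 0.074 and rank 36. Actn4 was closest within the set to Podxl, at 0.15. With 7 libraries many genes share a pattern, so these ranks describe the libraries only.

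Other podocyte genes and those of neighbouring cell types gave the frame for these values. Among all tested genes 53.2% were above 0, from 24.3% in the shortest exon length decile to 82.2% in the longest. At an unadjusted edgeR p under 0.05, 9.86% were higher and 11.3% lower. Every DKO library was above every WT library in 8.34% and below in 9.04%. Nothing is read from the counts that follow, because the lists were made with earlier results known. Of 13 podocyte markers 9 were higher and 4 lower (median 0.21), with Nphs1 higher (log2 fold change 0.67) and Tcf21, a transcription factor, lower (-0.79) at an unadjusted edgeR p under 0.05 and 0 called. Nphs1 was at 3.53, 2.22 and 3.36 CPM in WT and 4.36, 6.51, 4.05 and 4.53 CPM in DKO, with no overlap. The summed level of the 13 markers was 262 to 317 CPM in WT and 227 to 303 CPM in DKO, and every one had reads in all libraries. Npnt, Tcf21, Enpep and Mme made up 90.4% of that sum in WT, so it mostly reads these 4. Per kilobase of merged exon in WT they were at 19.4, 33.2, 9.13 and 3.43 CPM, against 0.459 for Nphs1. The cell source of their reads was not tested, so the 13-marker sum cannot be read as a podocyte level. The other 9 markers summed to 24.2 to 29.1 CPM in WT and 27.1 to 40.9 CPM in DKO. The upper end came from DKO replicate 3, where Wt1 alone was at 14.5 CPM. Wt1 was at 5.19, 8.46 and 2.73 CPM in DKO replicates 1, 2 and 4, and at 3.94, 3.18 and 4.02 CPM in WT. Of 26 tested genes of podocyte actin, its regulators and adhesion, 19 were higher and 7 lower (median 0.15), again with 0 called by edgeR. The 4 of smallest p were vinculin (Vcl, 0.86), tensin 2 (Tns2, 0.68), the tetraspanin Cd151 (-0.87) and the formin Diaph1 (0.59). Vcl was at 6.90, 7.04 and 5.35 CPM in WT and 9.55, 12.1, 12.9 and 12.0 CPM in DKO, with no overlap. In that list 4 genes, Vcl among them, had every DKO library above every WT library. The reverse held for 2, Cd151 among them. Podocalyxin is also a surface protein of endothelium. Endothelial genes were higher in 8 of 9 (median 0.18, summed level 347 to 513 CPM in WT and 402 to 490 CPM in DKO), with Egfl7 at -0.57. Parietal epithelial genes were higher in 6 of 6 (median 0.30), among them Pax8 (0.67) and Cldn1 (0.71). Their summed level was 239 to 288 CPM in WT and 303 to 416 CPM in DKO. Krt18, Pax8 and Krt8 had means of 97.1, 87.4 and 40.6 CPM in WT, so the sum mostly reads these genes. Their DKO means were 99.9, 139 and 42.3 CPM, and the cell source of the reads was not tested. Proximal tubule genes were higher in 6 of 7 (median 0.25), among them Cubn (0.60) and Slc34a1 (0.51), with a summed level of 5097 to 6791 CPM in WT and 7270 to 7984 CPM in DKO. Slc34a1 had means of 3201 CPM in WT and 4555 CPM in DKO, so that sum mostly reads this gene. Mesangial and smooth muscle genes were evenly split, 4 higher and 4 lower (median -0.014), with Myh11 at 0.75. Loop and distal tubule genes were lower in 4 of 7 (median -0.12), with Atp6v1g3, Umod and Kcnj1 at -0.98, -0.68 and -0.54. With the length and GC trend removed, the medians were 0.030 for podocyte markers, 0.042 for actin, its regulators and adhesion, -0.019 for endothelium, 0.19 for parietal epithelium, 0.18 for proximal tubule, -0.12 for mesangium and smooth muscle and -0.28 for loop and distal tubule. The endothelial median thus changed sign, and the median of all tested genes on that scale was -0.014. For the apical complex it went from -0.028 to 0.0076. No gene of these lists passed edgeR's adjusted threshold, where 0% of all tested genes passed. The DESeq2 adjusted p was under 0.05 for Vcl (0.0195), Slc34a1 (0.0300), Clic1 (0.0344), Myh11 (0.0365), Atp6v1g3 (0.0413), Cubn (0.0469) and Cd151 (0.0498). Of these, Clic1, Atp6v1g3 and Cd151 were lower in DKO and the others higher. In DESeq2, 4.74% of 13001 genes passed in either direction. The part of these other cell types in the values of Podxl, Ezr, Clic5 and Actn4 was not tested.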

How the data were processed

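The authors deposited raw read counts per Ensembl gene for 7 kidney libraries, the same counts after a filter, and a TMM-scaled CPM signal table, used here only for gene symbols. Per the submitters' processing notes, reads were aligned with STAR 2.5.2a to GRCm38 (GRCh38 is also listed), and the labels' protocols name an unstranded library kit. The read counter is not given in the sources used. Of 48733 rows, 24 are not Ensembl genes and were left out (at most 0.000697% of counts).

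DKO was compared with WT by edgeR 4.0.16 (quasi-likelihood, robust, TMM, filterByExpr with minimum count 10 and total 15, Benjamini-Hochberg over 15394 genes) in R 4.3.3. CPM is TMM-scaled, and log2 CPM uses a prior count of 2. SE was derived from the F statistic. Alternatives were DESeq2 1.42.0, limma-voom 3.58.1, other size factors, no filter, a replicate block, each library left out, and removal of a length and GC trend (mgcv 1.9.3). Exon lengths came from GENCODE M21. The tests were also run on simulated independent counts, which held no exon length pattern and so cannot check the tests against it.

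The members and lists were chosen with earlier results of these data known. Named genes are the 10 members, both targets, from each list up to 4 genes with an unadjusted p under 0.05 or otherwise the 2 most abundant, and the 3 genes most like Podxl and Synpo. Slc9a3r1, Slc9a3r2, Rdx, Msn, Npnt, Enpep, Mme, Wt1, Krt8, Krt18, Cd34, Clic4, Actn1 and Synpo2 were named after their values were seen. One planned comparison, against reference transcripts of the same library, and 1 marker gene are not reported here. All members had reads in every library. PCR copies cannot be told from separate molecules.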

Additional observations from a re-analysis of the deposited data

How the results depend on the processing

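The count of 0 members called by edgeR became 1 (Podxl) with DESeq2, and was 0 in the other refits, including each library left out. Podxl's adjusted p ranged from 0.0356 to 0.494. In the whole table edgeR called 0 genes, against 616 by DESeq2, 66 with no low-count filter, 7 without DKO replicate 1 and 1 without WT replicate 2 (3250 genes had an unadjusted p under 0.05). Leaving out each library in turn, the members higher in DKO numbered 7 to 10 against 8, their median log2 fold change was 0.25 to 0.37 against 0.30, and relative to genes of like exon length it was 0.12 to 0.28 against 0.23. Podxl, Synpo, Actn4, Ezr, Clic5, Myo1e and Inf2 kept their direction in every alternative run, but not their size: with the length and GC trend removed Clic5 was 0.0028 against 0.23, and without WT replicate 4 Ezr was 0.12 against 0.25. Single genes changed sign on leaving out a library: Nes ranged from -0.26 to 0.23 (above 0 without WT replicate 4 or DKO replicate 1), Arhgap24 from -0.076 to 0.012 (above 0 without DKO replicate 1 or 2) and Thsd7a from -0.13 to 0.45 (below 0 without WT replicate 1, WT replicate 2 or DKO replicate 4). Thsd7a was also -0.24 with the length and GC trend removed. The cause was not tested. With the replicate number as a replicate block, 0 members were called and the median was 0.25. Correlations of same-numbered libraries were -0.13, 0.16 and 0.14, against -0.23 to 0.16 for WT and DKO libraries of different number. Of the 6 libraries with a shared number, 3 correlated best with their own. These values do not settle whether the numbers pair animals. Genotype is the only factor the labels name, so the main fit held no pairing. Depth limits Inf2 and Thsd7a most.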

Other observations

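Ratios of levels within a library, per kilobase of merged exon and chosen after the values were seen, put the members beside relatives and other glomerular genes. How often ratios of other gene pairs lack overlap was not tested. Podxl over Nphs1 was 13.9, 20.0 and 12.1 in WT and 13.6, 9.78, 17.0 and 14.5 in DKO, and these overlapped. Podxl over Cd34, a sialomucin of endothelium from the same family, was 1.01, 1.30 and 0.704 in WT and 1.43, 1.69, 1.58 and 1.38 in DKO, without overlap. Podxl alone also had every DKO library above every WT library, so this ratio is not a separate result.

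Clic5 over its relative Clic1 was 0.0151, 0.0186 and 0.0109 in WT and 0.0212, 0.0305, 0.0333 and 0.0279 in DKO, without overlap, while Clic5 over Clic4 overlapped (0.218 ± 0.0474 in WT, SD, n = 3, and 0.225 ± 0.0350 in DKO, SD, n = 4). Clic1 alone had every DKO library below every WT library, so Clic5 over Clic1 is not a separate result. Clic1 has 1799 nt of merged exons and Clic5 8782 nt, and the part of the length pattern of the libraries in this ratio was not tested. Ezr over Rdx was nearly constant, at 1.61 ± 0.0538 in WT (SD, n = 3) and 1.52 ± 0.0866 in DKO (SD, n = 4), with overlap. Actn4 exceeded its non-muscle paralogue Actn1 by 122.8 ± 19.0 in WT (SD, n = 3) and 120.2 ± 41.1 in DKO (SD, n = 4) as a ratio.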
